A study of Mus musculus with 12 samples.

Results

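The genes described here are 40 mouse cell cycle and proliferation genes, measured in heart tissue by bulk RNA sequencing. They were chosen by name, as genes that drive or mark each step of the division cycle. Earlier results of these data were known at that choice, so the shares of members given below beside all genes are descriptive. All 40 had a row among the 27179 genes of the deposited count table. After a filter on low counts 33 of the 40 could be tested, out of 13626 genes tested in all, and the other 7 are given by their raw counts. By role, 5 act in G1 and the entry into S phase, 10 in DNA replication, 9 in G2 and the entry into mitosis, 8 in the spindle, kinetochore and checkpoint, and 8 in mitotic exit and cytokinesis.

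The 12 hearts fall into 4 groups of 3: transverse aortic constriction (TAC) after diesel exhaust, TAC after filtered air, sham surgery after diesel exhaust, and sham surgery after filtered air. Diesel exhaust or filtered air was breathed by the pregnant dams from E0.5 to E17.5 (days of embryonic life), and the offspring themselves were raised in filtered air. TAC narrows the aortic arch, here with the use of a 27-gauge needle, and so loads the left ventricle with pressure. Surgery was done at 12 weeks of age, and hearts were taken at 15 weeks. Libraries were sequenced 4 to a run. For each heart the strain, sex, litter and run are unstated in the labels, no transgene is named, and hearts of 1 group may share a litter, so p-values measure the spread between these hearts and would be too small for the exposure if litters were shared. Library totals ran from 5534685 to 13265816 counts, and 3 counts in a library, taken as its floor, corresponded to 0.218 to 0.501 CPM (a gene's count relative to its library total, scaled with TMM factors), a limit that covers counting error only. Ventricular cardiomyocyte markers summed to between 40187 and 78319 CPM in every library, so the defining genes of the labelled tissue were abundant. Filtered air TAC heart 1 stood apart from the other TAC hearts: 15749 genes had a count in it, against 16884 to 17304 in the other 5, and its correlation with the other hearts of its group was 0.951 and 0.956, against 0.975 between those. Sham hearts had between 15224 and 16668 genes with a count, so that heart 1 lay in their range. Each other group also held a less similar heart. Diesel sham heart 2 correlated at 0.943 and 0.954 with its group, against 0.966 between those. Filtered air sham heart 1 was at 0.952 with both, against 0.973, and diesel TAC heart 1 at 0.967 and 0.960, against 0.975. Filtered air sham heart 1 also had the fewest genes with a count. In diesel sham heart 2, mitochondrial counts were 18.3%, against 25.1% to 32.4% in the other hearts.

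A cell that divides passes through G1, in which D-type cyclins with their kinases inactivate the retinoblastoma protein and free E2F factors, then copies its DNA in S phase with the MCM helicase, the PCNA clamp and a supply of nucleotides. In G2 and mitosis CDK1 with cyclins A and B, the Aurora and Polo kinases and the kinesins condense and part the chromosomes, and cytokinesis closes with midzone proteins and the ubiquitin ligase that removes mitotic proteins. Most cardiomyocytes leave this cycle soon after birth, so in an adult heart these RNAs are rare, and after pressure load they are known mainly from dividing fibroblasts, endothelial cells and immune cells. Transcription of the mitotic genes is known to depend on a promoter element called CHR, bound by the MuvB complexes, and on CCAAT boxes bound by NF-Y, whereas replication genes more often carry E2F sites.

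Top2a, Mki67 and Cenpf are the 3 members that passed the threshold between TAC and sham hearts after diesel exhaust, and their promoters are shown for that reason. Any part of the promoter letters in the direction of change was not tested. The sequences are from RefSeq (build GRCm38.p6) and run 5′ to 3′ along the minus strand on which each gene lies. Each covers 250 bases before to 50 bases after the start site listed for that promoter. The windows are chr11:99024140-99024439 for Top2a, chr7:135716330-135716629 for Mki67 and chr1:189688037-189688336 for Cenpf. The genes themselves lie at chr11:98992947-99024199, chr7:135689784-135716450 and chr1:189640606-189688107. The listed start sites thus lie inside these gene bounds and not at their ends, and positions below count from the listed start sites. Capitals mark the CHR letters TTTGAA and the CCAAT box on either strand (TTCAAA and ATTGG on the other strand).
Top2a: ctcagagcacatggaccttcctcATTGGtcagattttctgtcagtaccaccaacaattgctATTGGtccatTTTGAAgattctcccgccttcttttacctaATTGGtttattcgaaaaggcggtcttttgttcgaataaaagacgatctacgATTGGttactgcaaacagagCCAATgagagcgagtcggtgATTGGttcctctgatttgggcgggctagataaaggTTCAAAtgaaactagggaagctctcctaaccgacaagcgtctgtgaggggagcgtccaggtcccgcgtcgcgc
Mki67: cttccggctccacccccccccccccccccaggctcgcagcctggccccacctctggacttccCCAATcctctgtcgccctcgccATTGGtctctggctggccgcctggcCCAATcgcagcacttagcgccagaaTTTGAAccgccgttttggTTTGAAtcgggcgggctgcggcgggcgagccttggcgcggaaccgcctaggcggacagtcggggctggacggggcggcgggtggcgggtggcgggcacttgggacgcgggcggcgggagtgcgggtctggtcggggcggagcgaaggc
Cenpf: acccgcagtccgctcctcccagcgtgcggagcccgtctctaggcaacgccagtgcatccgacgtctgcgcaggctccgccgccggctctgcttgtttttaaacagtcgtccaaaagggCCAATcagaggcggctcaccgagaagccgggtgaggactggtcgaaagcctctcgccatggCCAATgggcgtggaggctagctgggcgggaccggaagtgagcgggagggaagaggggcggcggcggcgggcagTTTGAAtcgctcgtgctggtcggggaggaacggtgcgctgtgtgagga
Top2a holds 2 CHR matches and 6 CCAAT boxes, Mki67 2 and 3, and Cenpf 1 and 2. In Top2a a CHR match lies at position -23 from the start site listed for its promoter. In Cenpf the only one lies at position 3, just after the listed start site.

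Over the 32 members with an entry in that promoter table, 16 (50%) held TTTGAA and 25 (78.1%) held CCAAT on either strand, beside 20.2% and 41.1% of the 27025 genes of that table, counting a gene with several listed promoters where any of them held the letters. The E2F letters TTTCCCGC or TTTGGCGC, on either strand, were found in 4 members (12.5%) and in 1.8% of all these genes. Those 4 were the helicase genes Mcm3, Mcm5, Mcm6 and Mcm7. A match is a description of these letters and not a binding site, and no entry was matched for Ccnd1, Ccnd2, Ccne2, Mcm4, Ccna2, Tpx2, Kif20a and Aurkb.

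The members were low in these hearts apart from the D-type cyclins. Together they held 38948 counts in the 12 libraries, of which Ccnd1 and Ccnd2 took 64.4%, and 9 members had fewer than 100 counts over all libraries. Per kilobase of exon, Ccnd2 had 22.0 CPM in TAC and 14.6 in sham hearts, Ccnd1 16.8 and 13.7, and the replication clamp gene Pcna 7.02 and 6.72. Cenpf ranked 20th of 40 in TAC hearts at 0.525 CPM per kilobase, against 5th in sham hearts at 1.82. Mki67 had 1.62 CPM per kilobase in TAC and 0.855 in sham hearts.

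**Figure D1:**
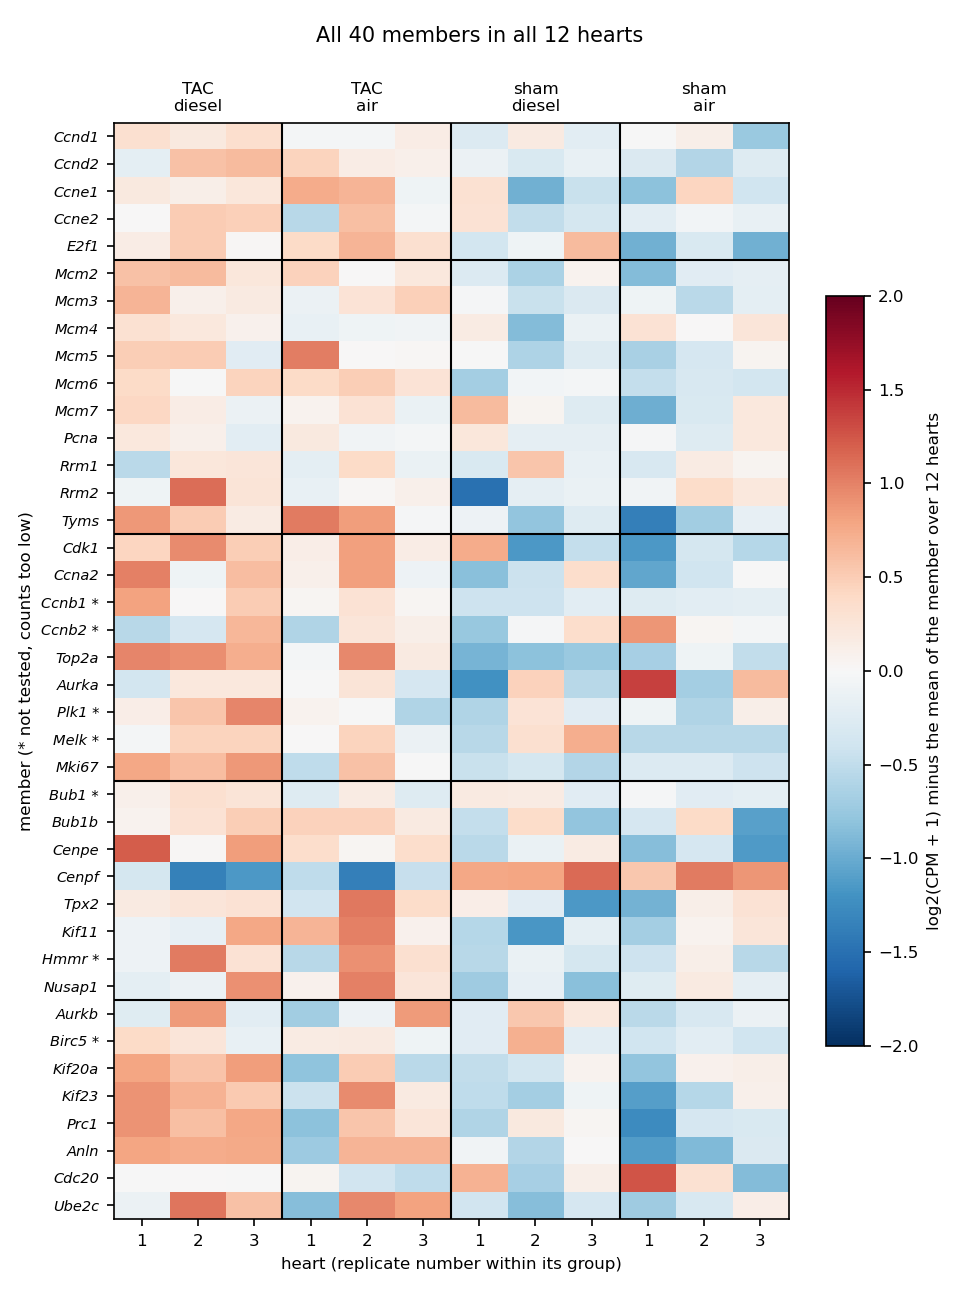
Level of each of the 40 members (rows, by role) in each of the 12 hearts (columns), as log2(CPM + 1) minus the member's mean over the 12 hearts, with red above and blue below that mean. Cenpf is blue in all 6 TAC hearts and red in all 6 sham hearts, while Top2a is above its mean or close to it in TAC hearts.

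The first comparison asks how the hearts of diesel-exposed animals responded to pressure load. With TAC, Top2a, the topoisomerase that untangles replicated DNA, and Mki67, the standard marker of cycling cells, rose, and Cenpf, a large kinetochore protein, fell. These were 2 of 33 tested members higher (6.06%) and 1 lower (3.03%), beside 1.75% higher and 1.49% lower over all 13626 genes tested. The median log2 fold change of the tested members was 0.91, against 0.00 for all genes, and 29 of the 33 had a positive one. In 15 of the 33 (45.5%) every diesel TAC heart lay above every diesel sham heart, beside 11.1% of all genes, and in 1 (3.03%, Cenpf) below, beside 11.2%. Members pass the filter on low counts partly through the group in which they are high, so these counts describe the members that passed and not all 40.

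After filtered air, Cenpf fell again and no member rose past the threshold. That was 1 of 33 lower (3.03%) and 0 higher by edgeR, DESeq2 and limma voom alike, beside 0.22% lower and 0.609% higher over all genes, and 11 members (33.3%) had an unadjusted p below 0.05, beside 11.1% of all genes. The median log2 fold change of the tested members was 0.88, against 0.01 for all genes, with 27 of 33 positive. Groups were apart with TAC higher in 8 members (24.2%, beside 8.2% of all genes) and with TAC lower in 2 members (6.06%, beside 7.57%), Cenpf and the helicase gene Mcm4.

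Averaged over the 2 exposures, which sets all 6 TAC hearts against all 6 sham hearts and so reuses the hearts of both comparisons above, 8 members rose and 1 fell. The shares were 24.2% and 3.03% of the tested members, beside 4.1% and 3.91% of all genes. The 8 were Ccnd2, Mcm2, Mcm6, Tyms, Top2a, Mki67, Cenpe and Anln, at least 1 from each of the 5 roles, and Cenpf was the one that fell. The median log2 fold change was 0.81 against 0.00 for all genes. In 3 members (9.09%, beside 2.19%) all 6 TAC hearts lay above all 6 sham hearts, namely Mcm6, Tyms and Top2a, and in 1 (3.03%, beside 2.13%), Cenpf, below them. By role, the median log2 fold changes after diesel exhaust and after filtered air were 0.57 and 0.61 for G1 and S entry, 0.64 and 0.51 for replication, and 1.27 and 1.03 for the 5 tested genes of G2 and mitotic entry. They were 1.18 and 0.98 for the 6 tested spindle genes and 1.20 and 1.48 for the 7 tested genes of mitotic exit. The limit set by the filter holds for the counts and medians of all 3 comparisons. On the TAC groups alone 31 members passed the filter, and on the sham groups alone 20. The medians by role thus describe the members that passed and do not rank the roles. With other methods and scalings or no filter, the averaged median ran from 0.81 to 0.89. Leaving out single hearts moved the 9 calls to between 4 and 9: 4 members passed without filtered air TAC heart 2, and 5 without filtered air sham heart 1 or without diesel TAC heart 1. Ccnd2, Top2a, Mki67 and Cenpf passed in every one of the 17 alternative fits.

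**Figure D2:**
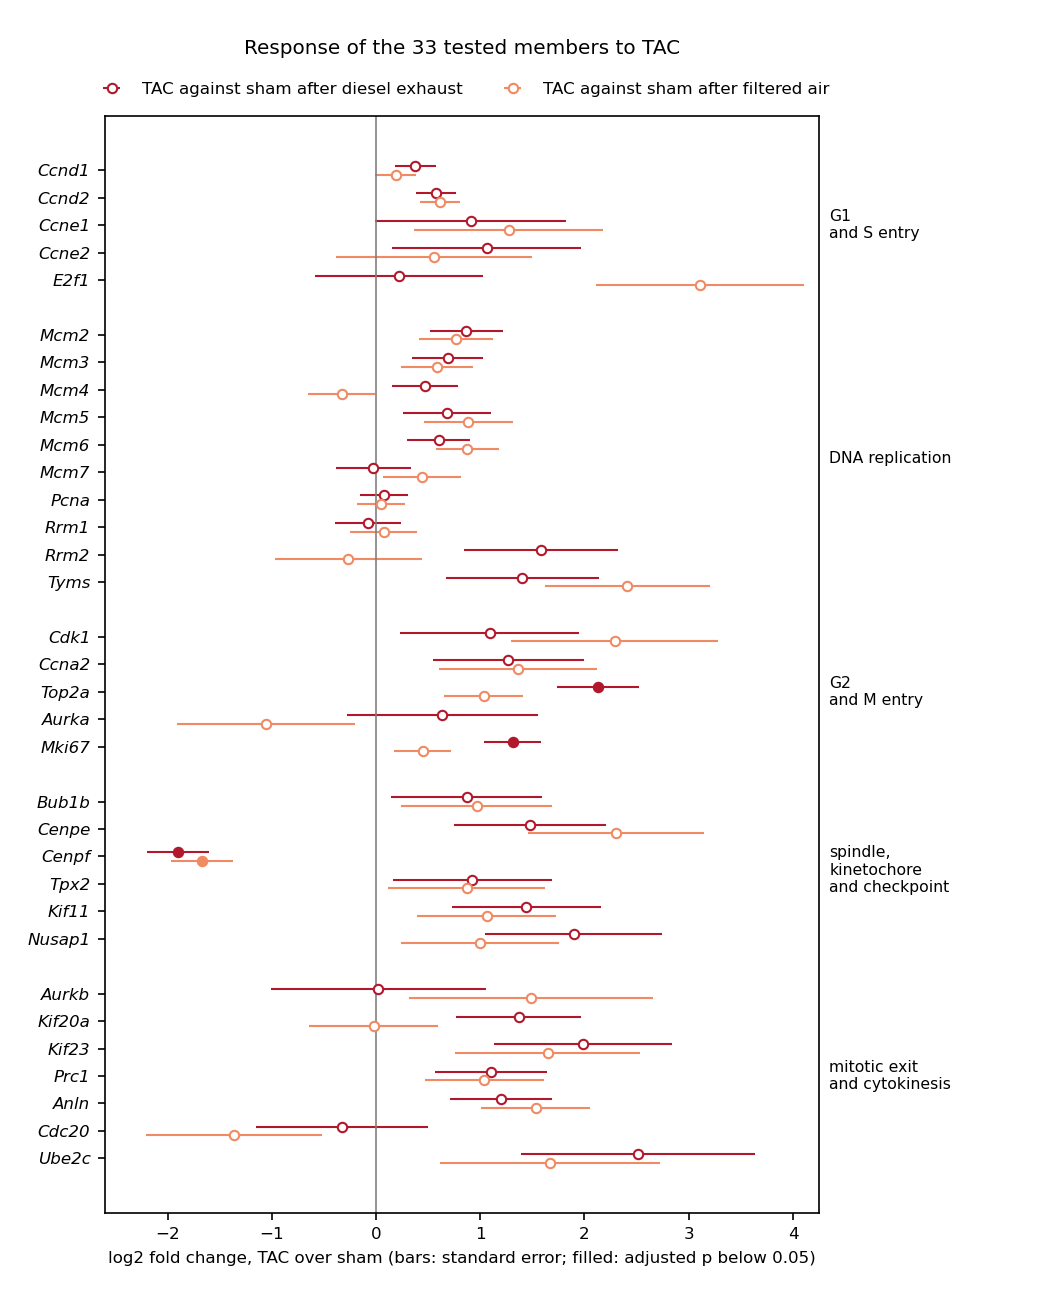
Log2 fold change of TAC over sham (x axis) for each of the 33 tested members, grouped by role, after diesel exhaust (dark red) and after filtered air (orange); bars are standard errors and filled points passed an adjusted p of 0.05. The filled points are Top2a, Mki67 and Cenpf after diesel exhaust and Cenpf after filtered air, and the bars of the rare members span over 1 log2 unit.

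Among the genes of G1 and S entry, Ccnd2 rose and the others did not pass the threshold. Ccnd2 encodes cyclin D2, a partner of CDK4 and CDK6. It was at 146, 249.9 and 258 CPM in diesel TAC hearts, against 153, 135 and 151 CPM in diesel sham hearts. After filtered air, Ccnd2 was at 227, 185 and 178 CPM in TAC hearts, against 136, 111 and 139 CPM in sham hearts. Diesel TAC heart 1 lay within the range of its sham hearts, and after filtered air all 3 TAC hearts lay above all 3 sham hearts. The log2 fold change averaged over exposure was 0.59 ± 0.14 (SE, adjusted p = 0.00896, edgeR), with 0.57 ± 0.19 after diesel exhaust (adjusted p = 0.118) and 0.61 ± 0.19 after filtered air (adjusted p = 0.169). Without diesel TAC heart 1 the change after diesel exhaust was 0.80 ± 0.17 and passed (adjusted p = 0.0172).

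Ccnd1, the gene of cyclin D1, was at 88.6, 80.8 and 89.4 CPM in diesel TAC hearts, against 58.2, 80.4 and 60.9 CPM in diesel sham hearts. After filtered air, Ccnd1 was at 68.8, 68.4 and 77.9 CPM in TAC hearts, against 70.4, 76.35 and 41.9 CPM in sham hearts. The diesel groups were just apart and the filtered air groups overlapped, and neither change passed (0.38 ± 0.20 and 0.19 ± 0.20, adjusted p = 0.365 and 0.82). E2f1, an activating E2F factor, had 13, 17 and 12 counts in filtered air TAC hearts, against 0, 4 and 0 counts in filtered air sham hearts. In diesel-exposed animals E2f1 had 16, 16 and 10 counts in TAC hearts, against 4, 5 and 14 counts in sham hearts. The filtered air groups were apart and the diesel groups overlapped at diesel sham heart 3. At 3.11 ± 1.00 after filtered air E2f1 had the largest log2 fold change of any tested member in that comparison, but it did not pass (adjusted p = 0.177), nor did the change of 0.22 ± 0.81 after diesel exhaust (adjusted p = 0.941). On average it was 1.66 ± 0.65 (adjusted p = 0.128), and without filtered air sham heart 2 it was 3.54 and passed (adjusted p = 0.02585). The cyclin E genes Ccne1 and Ccne2, partners of CDK2, lay between 0 and 2.26 CPM in every library, with overlapping groups.

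Of the replication genes, Mcm2, Mcm6 and Tyms rose in the averaged comparison, while for Pcna and Rrm1 the 95% intervals spanned 0. Mcm2 and Mcm6 are subunits of the replicative helicase. Mcm6 was at 9.65, 7.14 and 10.1 CPM in diesel TAC hearts, against 4.09, 6.85 and 6.93 CPM in diesel sham hearts. After filtered air, Mcm6 was at 9.65, 10.5 and 8.84 CPM in TAC hearts, against 4.87, 5.58 and 5.35 CPM in sham hearts. All 6 TAC hearts lay above all 6 sham hearts, and the averaged change was 0.74 ± 0.21 (adjusted p = 0.0344, edgeR).

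Mcm2 was at 8.71, 9.04 and 6.56 CPM in diesel TAC hearts, against 4.34, 3.18 and 5.77 CPM in diesel sham hearts. After filtered air, Mcm2 was at 7.86, 5.51 and 6.45 CPM in TAC hearts, against 2.54, 4.55 and 4.70 CPM in sham hearts. The groups were apart within each exposure, with an averaged change of 0.81 ± 0.25 (adjusted p = 0.0466). Tyms, thymidylate synthase, was at 3.70, 2.68 and 1.89 CPM in diesel TAC hearts, against 1.404, 0.501 and 1.15 CPM in diesel sham hearts. After filtered air, Tyms was at 4.29, 3.63 and 1.55 CPM in TAC hearts, against 0, 0.587 and 1.30 CPM in sham hearts. Here too the 6 TAC hearts were above the 6 sham hearts, and the averaged change was 1.91 ± 0.54 (adjusted p = 0.0315). These 3 calls rest on all 12 hearts: leaving out 1 heart at a time ended the call of Mcm2 in 11 of 12 fits, of Mcm6 in 7 and of Tyms in 7, with adjusted p up to 0.114, 0.0945 and 0.0826. Mcm2 also missed the threshold when no filter on low counts was used.

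Pcna was at 19.1, 17.6 and 14.02 CPM in diesel TAC hearts, against 19.4, 14.4 and 14.3 CPM in diesel sham hearts. After filtered air, Pcna was at 18.9, 15.5 and 15.9 CPM in TAC hearts, against 16.1, 13.5 and 19.1 CPM in sham hearts. The groups overlapped in both exposures, and the 95% interval of the averaged change ran from -0.27 to 0.40 around 0.06. Rrm1, the large subunit of ribonucleotide reductase, was at 6.31, 11.5 and 11.6 CPM in diesel TAC hearts, against 7.66, 14.7 and 8.66 CPM in diesel sham hearts. After filtered air, Rrm1 was at 8.34, 12.9 and 8.72 CPM in TAC hearts, against 7.52, 11.0 and 10.1 CPM in sham hearts. Its groups overlapped as well, with an interval of -0.47 to 0.47. Of the other replication members, Mcm3, Mcm5, Mcm7 and Rrm2 had averaged changes of 0.64 ± 0.24, 0.79 ± 0.30, 0.21 ± 0.26 and 0.66 ± 0.51, none past the threshold. Mcm4, with an averaged change of 0.07 ± 0.23, was at 5.84, 6.14 and 6.21 CPM in filtered air TAC hearts, against 8.26, 6.61 and 7.95 CPM in filtered air sham hearts, so that all 3 TAC hearts lay below.

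**Figure D3:**
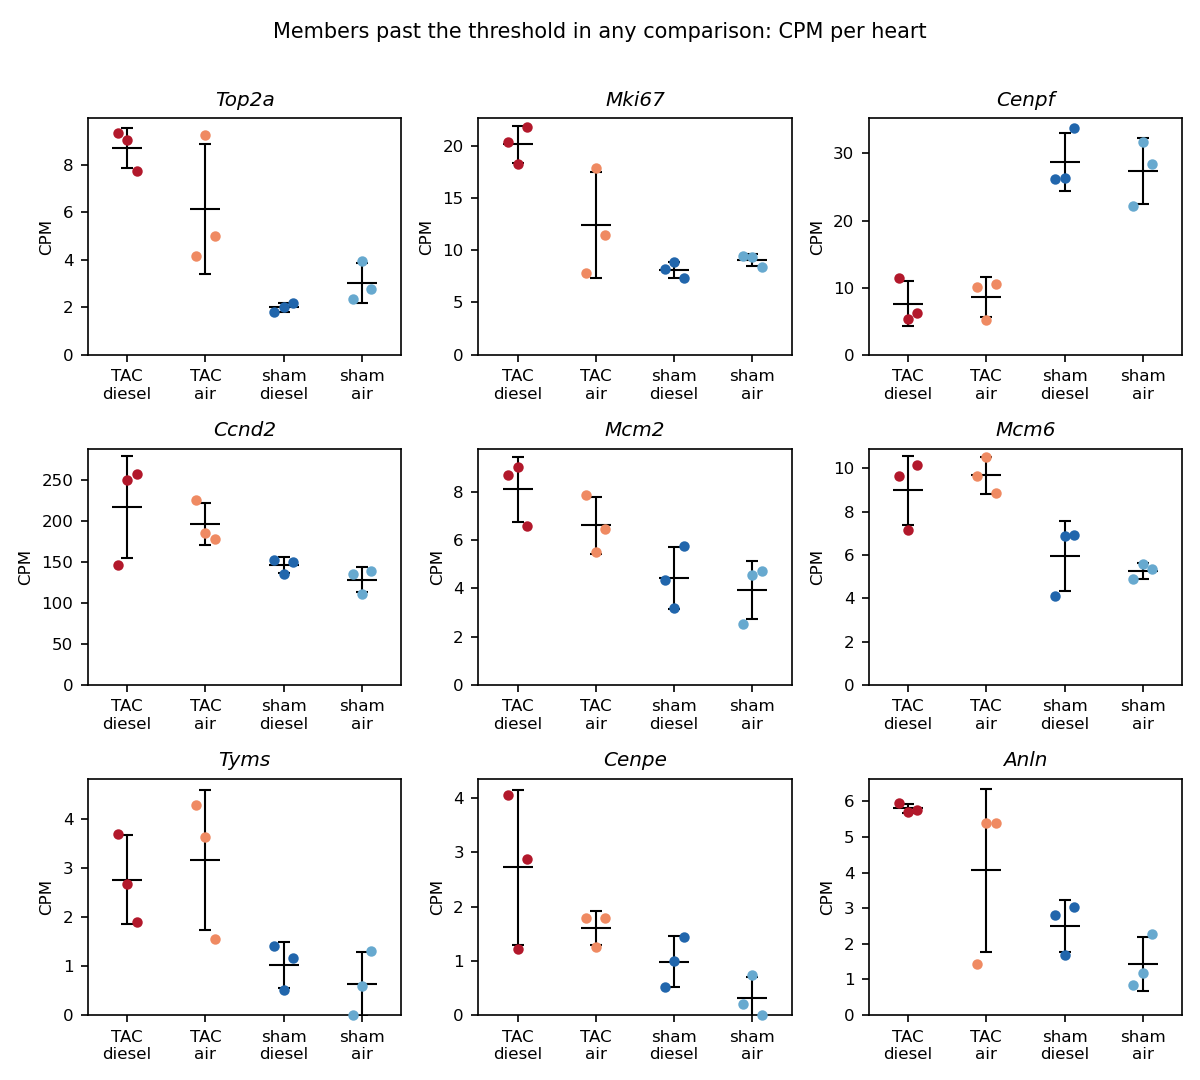
CPM (y axis) of the 9 members that passed an adjusted p of 0.05 in any comparison, 1 point per heart, with the mean and SD of each group (n = 3). Cenpf is between 5.14 and 11.5 CPM in TAC hearts, below every sham heart, and Top2a is above every sham heart in all 6 TAC hearts, with the smallest gap after filtered air.

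The genes of G2 and mitotic entry gave the 2 members that rose after diesel exhaust. Top2a was at 9.36, 9.04 and 7.76 CPM in diesel TAC hearts, against 1.79, 2.01 and 2.16 CPM in diesel sham hearts. After filtered air, Top2a was at 4.17, 9.27 and 5.02 CPM in TAC hearts, against 2.33, 3.96 and 2.76 CPM in sham hearts. All 6 TAC hearts were above all 6 sham hearts, by a small margin in filtered air TAC heart 1. The log2 fold change was 2.13 ± 0.39 after diesel exhaust (4.37-fold, adjusted p = 0.00342, edgeR), 1.03 ± 0.38 after filtered air (adjusted p = 0.281) and 1.58 ± 0.27 on average (adjusted p = 0.000816). Without filtered air TAC heart 2, the change after filtered air was 0.61. A small nucleolar RNA gene, Gm23451, shares 122 bases with the exons of Top2a on the same strand, and the labels do not say how reads of both were counted.

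Mki67 was at 20.4, 18.3 and 21.8 CPM in diesel TAC hearts, against 8.17, 8.86 and 7.36 CPM in diesel sham hearts. After filtered air, Mki67 was at 7.86, 17.9 and 11.5 CPM in TAC hearts, against 9.42, 9.40 and 8.44 CPM in sham hearts. The diesel groups were far apart and tight, whereas the filtered air TAC hearts ran from below the sham hearts to nearly the level of the diesel TAC hearts. The log2 fold change was 1.31 ± 0.27 after diesel exhaust (2.48-fold, adjusted p = 0.00861) and 0.88 ± 0.19 on average (adjusted p = 0.00628). After filtered air it was 0.45 ± 0.27 (adjusted p = 0.596), which became 0.69 without TAC heart 1 and 0.09 without TAC heart 2, with no call in either.

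Cdk1, the kinase that starts mitosis, was at 1.96, 3.24 and 2.09 CPM in diesel TAC hearts, against 2.68, 0 and 0.577 CPM in diesel sham hearts. After filtered air, Cdk1 was at 1.43, 2.88 and 1.43 CPM in TAC hearts, against 0, 0.734 and 0.487 CPM in sham hearts. The filtered air groups were apart and the diesel groups overlapped through sham heart 1, and the averaged change of 1.69 ± 0.66 did not pass (adjusted p = 0.128). Without that sham heart it was 2.61 ± 0.72 and passed (adjusted p = 0.0326). Ccna2, the gene of cyclin A2, and Aurka, the gene of Aurora kinase A, did not pass on average (1.32 ± 0.53 and -0.21 ± 0.63, adjusted p = 0.14 and 0.901). Aurka had 11, 15 and 17 counts in diesel TAC hearts, against 0, 13 and 4 counts in diesel sham hearts, and 11, 14 and 7 counts in filtered air TAC hearts, against 47, 3 and 16 counts in filtered air sham hearts. The groups overlapped in both exposures, with changes of opposite sign that did not pass, 0.64 ± 0.91 after diesel exhaust and -1.05 ± 0.85 after filtered air.

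Cyclins B1 and B2, Polo-like kinase 1 and the kinase Melk were too rare to test. Ccnb1 had 18, 3 and 9 counts in diesel TAC hearts, against 0, 0 and 1 in diesel sham hearts, and 3, 5 and 3 counts in filtered air TAC hearts, against 1, 1 and 1 in filtered air sham hearts. Plk1 had 9, 11 and 20 counts in diesel TAC hearts, against 0, 5 and 2 in diesel sham hearts, and 5, 4 and 0 counts in filtered air TAC hearts, against 4, 0 and 4 in filtered air sham hearts. These raw counts are not scaled for depth. Melk had 6, 9 and 10 counts in diesel TAC hearts, against 0, 5 and 10 in diesel sham hearts, and 4, 8 and 3 counts in filtered air TAC hearts, against 0 in all 3 filtered air sham hearts. Ccnb2 had 2, 3 and 17 counts in diesel TAC hearts, against 0, 4 and 8 in diesel sham hearts. After filtered air it had 1, 8 and 7 counts in TAC hearts, against 20, 5 and 4 in sham hearts.

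Cenpf ran against its own list, the spindle, kinetochore and checkpoint genes, and against the other called members. In cycling cells its product gathers at the kinetochore in G2 and mitosis; the mouse protein, also called LEK1, is known in heart muscle as a microtubule-associated protein too. Cenpf was at 11.5, 5.24 and 6.17 CPM in diesel TAC hearts, against 26.2, 26.4 and 33.8 CPM in diesel sham hearts. After filtered air, Cenpf was at 10.1, 5.14 and 10.5 CPM in TAC hearts, against 22.1, 31.7 and 28.4 CPM in sham hearts. No TAC heart came within 10 CPM of any sham heart. The log2 fold change was -1.90 ± 0.30 after diesel exhaust (adjusted p = 0.000553), -1.67 ± 0.30 after filtered air (adjusted p = 0.00576) and -1.78 ± 0.21 on average (adjusted p = 9.93e-06), by edgeR's quasi-likelihood test. Without filtered air TAC heart 2 the change after filtered air was -1.405 and missed the threshold (adjusted p = 0.0602).

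The other spindle genes were mostly higher in TAC hearts, with 1 past the threshold. Cenpe, a kinesin that carries chromosomes to the spindle equator, was at 4.06, 1.23 and 2.88 CPM in diesel TAC hearts, against 0.511, 1.00 and 1.44 CPM in diesel sham hearts. After filtered air, Cenpe was at 1.79, 1.25 and 1.79 CPM in TAC hearts, against 0.212, 0.734 and 0 CPM in sham hearts. The filtered air groups were apart, the diesel groups overlapped at TAC heart 2, and the averaged change was 1.89 ± 0.56 (adjusted p = 0.0397), a call that ended in 10 of the 12 fits without 1 heart (adjusted p up to 0.123) and with limma voom. Kif11, the kinesin that pushes the spindle poles apart, was at 1.45, 1.34 and 3.48 CPM in diesel TAC hearts, against 0.766, 0.167 and 1.30 CPM in diesel sham hearts. After filtered air, Kif11 was at 3.22, 4.26 and 1.79 CPM in TAC hearts, against 0.635, 1.76 and 2.11 CPM in sham hearts. The averaged change of 1.25 ± 0.49 did not pass (adjusted p = 0.128). Bub1b, a checkpoint kinase, Tpx2, a spindle assembly factor, and Nusap1, a microtubule-binding protein, had averaged changes of 0.92 ± 0.51, 0.90 ± 0.54 and 1.45 ± 0.57, none past the threshold. Bub1, with 37 counts in all (24 in TAC and 13 in sham hearts), and Hmmr, with 60 (52 and 8), were not tested.

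The summed level of the list shows the weight of Cenpf. With it, the 8 spindle genes summed to 22.1, 15.4 and 21.4 CPM in diesel TAC hearts, against 30.8, 32.6 and 37.5 CPM in diesel sham hearts. Without it, the other 7 summed to 10.6, 10.2 and 15.2 CPM in diesel TAC hearts, against 4.60, 6.18 and 3.75 CPM in diesel sham hearts. After filtered air, the 7 genes summed to 9.65, 17.54 and 10.04 CPM in TAC hearts, against 3.28, 8.52 and 5.35 CPM in sham hearts. The direction of the sum was opposite with and without Cenpf in both exposures, with no overlap between TAC and sham hearts either way.

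**Figure D4:**
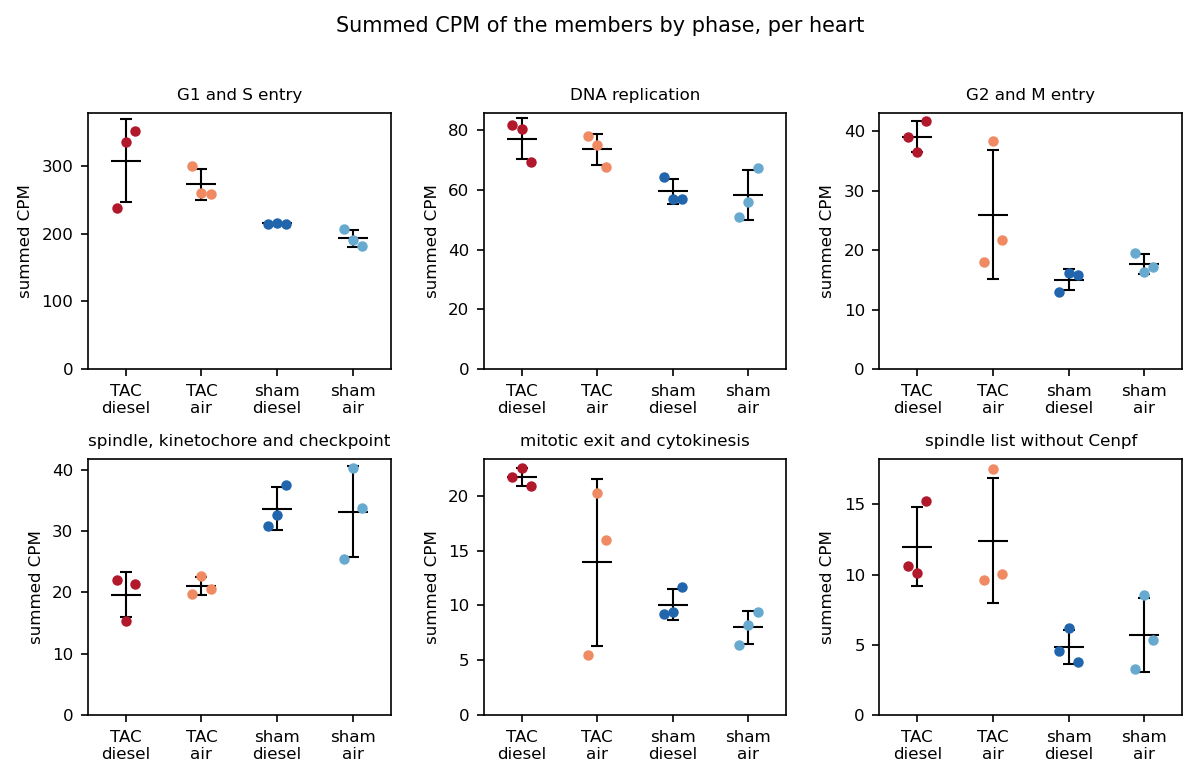
Summed CPM of the members of each role (y axis), 1 point per heart with the mean and SD of each group (n = 3); the last panel repeats the spindle list without Cenpf. Filtered air TAC heart 1 is the lowest TAC heart for mitotic exit (5.48 CPM) and for G2 and mitotic entry (18.0 CPM), and the spindle list changes side when Cenpf is left out.

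Of the genes of mitotic exit and cytokinesis, Anln rose in the averaged comparison. Anln encodes anillin, a scaffold of the contractile ring, and was at 5.95, 5.69 and 5.77 CPM in diesel TAC hearts, against 2.81, 1.67 and 3.03 CPM in diesel sham hearts. After filtered air, Anln was at 1.43, 5.39 and 5.38 CPM in TAC hearts, against 0.847, 1.17 and 2.27 CPM in sham hearts. The diesel groups were apart and the filtered air groups overlapped through TAC heart 1. The averaged change was 1.37 ± 0.36 (adjusted p = 0.0206) and missed the threshold in 3 of 12 fits without 1 heart, with adjusted p up to 0.0726, and with limma voom.

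Prc1, which bundles microtubules at the spindle midzone, was at 5.80, 4.57 and 5.27 CPM in diesel TAC hearts, against 1.404, 3.18 and 2.74 CPM in diesel sham hearts. After filtered air, Prc1 was at 1.07, 4.39 and 3.35 CPM in TAC hearts, against 0.529, 1.91 and 1.95 CPM in sham hearts. The diesel groups were apart, filtered air TAC heart 1 lay among the sham hearts, and the averaged change of 1.07 ± 0.39 did not pass (adjusted p = 0.103). Ube2c, the ubiquitin-conjugating enzyme of the anaphase-promoting complex, was at 0.653, 2.79 and 1.69 CPM in diesel TAC hearts, against 0.383, 0 and 0.433 CPM in diesel sham hearts. After filtered air, Ube2c was at 0, 2.51 and 2.15 CPM in TAC hearts, against 0.106, 0.440 and 0.973 CPM in sham hearts. It had the largest averaged change of the tested members, 2.09 ± 0.77, without passing (adjusted p = 0.107), and its exons overlap those of the troponin gene Tnnc2 on the other strand by 592 bases. Without filtered air TAC heart 1 both passed, Prc1 at 1.27 ± 0.36 (adjusted p = 0.0326) and Ube2c at 2.38 ± 0.67 (adjusted p = 0.0307).

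The mitotic kinesins Kif20a and Kif23 had averaged changes of 0.67 ± 0.43 and 1.82 ± 0.62, and Aurkb, the gene of Aurora kinase B, 0.75 ± 0.77, none past the threshold by edgeR on all hearts. Kif23 (adjusted p = 0.0744) passed with DESeq2, with no filter on low counts, and without filtered air TAC heart 1 or filtered air sham heart 3. Cdc20, an activator of the anaphase-promoting complex, had the other sign at -0.84 ± 0.59 (adjusted p = 0.451), with 15, 10 and 11 counts in diesel TAC hearts, against 19, 2 and 9 in diesel sham hearts, and 10, 5 and 4 counts in filtered air TAC hearts, against 38, 11 and 1 in filtered air sham hearts. Birc5, the gene of survivin, had 37 counts in all, 27 in TAC and 10 in sham hearts, and was not tested. The 8 genes summed to 21.8, 22.5 and 20.9 CPM in diesel TAC hearts, against 9.19, 9.36 and 11.7 CPM in diesel sham hearts. After filtered air, they summed to 5.48, 20.3 and 16.0 CPM in TAC hearts, against 6.35, 8.22 and 9.41 CPM in sham hearts. Filtered air TAC heart 1 was below every sham heart in this sum, and the other 5 TAC hearts were above every sham heart.

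The series asks whether exposure before birth changes the response to pressure load. No member and none of the 13626 genes (0%) passed by edgeR for diesel exhaust against filtered air in TAC hearts, for the same in sham hearts (0%), or for the exposure by surgery interaction (0%). At an unadjusted p below 0.05 there were 2, 1 and 2 members (6.06%, 3.03% and 6.06%). Over all genes there were 255, 503 and 327 (1.87%, 3.69% and 2.4%). DESeq2 called 1, 0 and 1 genes and limma voom 0 in each, and neither called a member.

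For Mki67, diesel TAC hearts exceeded filtered air TAC hearts without overlap, at 0.70 ± 0.26 on the log2 scale (unadjusted p = 0.015, adjusted p = 1, edgeR). That was 0.46 without filtered air TAC heart 1 and 1.06 without filtered air TAC heart 2. Its interaction, the response after diesel exhaust minus that after filtered air, was 0.86 ± 0.39 (95% interval 0.06 to 1.67, unadjusted p = 0.0363, adjusted p = 1), and was 0.61 without filtered air TAC heart 1 and 1.22 without filtered air TAC heart 2. Top2a had an interaction of 1.10 ± 0.55 (interval -0.04 to 2.23, unadjusted p = 0.0573). Cenpf had one of -0.23 ± 0.41, with an interval of -1.09 to 0.63. E2f1 had the largest interaction, -2.89 ± 1.30 (unadjusted p = 0.0368), and in sham hearts it was 2.51 ± 1.03 higher after diesel exhaust (unadjusted p = 0.024, adjusted p = 0.996). For 31 of the 33 tested members the 95% interval of the interaction spanned 0, and its median width was 3.99 log2 units. The intervals of many members thus included responses differing several-fold between exposures. How much of that width came from depth, from 3 hearts per group or from the spread between hearts was not tested. Kif20a was 1.25 ± 0.59 higher in diesel than in filtered air TAC hearts (unadjusted p = 0.0444, adjusted p = 1, edgeR's quasi-likelihood test). Its exons overlap those of Cdc23 on the other strand by 1271 bases.

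Other genes of the cycle were measured from 5 further lists with 163 genes in the table. Among other mitotic genes, 24 of 43 could be tested, and 1 rose after diesel exhaust, 0 after filtered air and 4 on average. Of all genes tested, 1.75%, 0.609% and 4.1% rose in these comparisons, and 3.91% fell on average. Iqgap3, a scaffold protein linked to proliferation, was at 3.12, 3.57 and 3.38 CPM in diesel TAC hearts, against 0.511, 0.501 and 0.577 CPM in diesel sham hearts, a change of 2.63 ± 0.72 (adjusted p = 0.0481). On average Iqgap3 rose with the condensin subunit Smc4 (0.66 ± 0.18) and the microtubule-associated genes Ckap2 (2.59 ± 0.78) and Ckap2l (2.503 ± 0.73), while Pttg1, the gene of securin, fell by 0.59 ± 0.14 (adjusted p = 0.0104). Pttg1 was at 31.8, 24.9 and 27.4 CPM in diesel TAC hearts, against 35.5, 49.0 and 33.9 CPM in diesel sham hearts.

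Of 29 other replication genes 23 could be tested, and 1 rose on average, a share near the 4.1% of all genes that did. It was Uhrf1, which couples DNA replication to maintenance of methylation (1.82 ± 0.44, adjusted p = 0.0123, edgeR). Uhrf1 was at 2.47, 2.90 and 2.98 CPM in diesel TAC hearts, against 0.638, 1.00 and 1.01 CPM in diesel sham hearts. The median log2 fold change of these 23 genes was 0.06 after diesel exhaust and 0.05 after filtered air, against 0.64 and 0.51 for the 10 replication members. No gene of the other G1 regulators (12 of 13 tested) or of the CDK inhibitors with the pocket proteins and the DREAM complex (14 of 16 tested) passed in any comparison, with medians of 0.15 and -0.06 after diesel exhaust and -0.04 and -0.08 after filtered air. Among them 1 and 1 had an unadjusted p below 0.05 by edgeR after diesel exhaust, beside 15.9% of all genes. After filtered air 2 and 1 did, beside 11.1% of all genes. Of 62 replication-dependent histone genes, whose RNAs lack poly(A) tails and are made in S phase, 55 were tested, with medians of 0.56 after diesel exhaust and 0.67 after filtered air. Only H1f5 passed, after diesel exhaust (2.25 ± 0.60, adjusted p = 0.0474, edgeR) and on average (1.63 ± 0.42, adjusted p = 0.0196). Of all genes, 1.75% and 4.1% rose in these comparisons, so 1 of 55 was not above the shares of all genes by any margin of note. Near-identical copies make many single genes of this list uncertain, and whether H1f5 is one of them was not tested.

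Markers of some cell types, mainly fibroblasts, also rose with TAC, while those of others did not pass the threshold or went both ways. For the marker counts here and below, the shares over all genes were as follows. After diesel exhaust 1.75% rose and 1.49% fell, after filtered air 0.609% and 0.22%, and on average 4.1% and 3.91%. In bulk tissue fewer cells of a type and less RNA per cell cannot be told apart. Of 10 fibroblast markers, 6 rose after diesel exhaust, 3 after filtered air and 6 on average, among them Postn (3.99 ± 0.34 and 2.94 ± 0.33 in the 2 exposures). Their summed level was 3370.5 to 3937 CPM in diesel TAC hearts, against 1593 to 2141 CPM in diesel sham hearts, and 2356 to 3799 CPM in filtered air TAC hearts, against 1698 to 1813 CPM in filtered air sham hearts. Filtered air TAC heart 2, the highest of its group for Mki67 and Top2a, was also the highest for this sum. The order of the other hearts of that group differed. Heart 1 was above heart 3 in this sum (2685 against 2356 CPM) and below it for Mki67 and Top2a. Ccnd2, Mcm2 and Tyms were highest in heart 1 of that group.

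Of 12 macrophage and monocyte markers, 1 (Mrc1) rose after diesel exhaust, 0 after filtered air and 4 on average, and their sum was 435 to 459 CPM in diesel TAC hearts, against 241 to 459 CPM in diesel sham hearts. After filtered air, that sum was 339 to 529 CPM in TAC hearts, against 229.9 to 315 CPM in sham hearts. Of 10 lymphocyte markers only Ptprc, which all leukocytes share, could be tested, and it rose on average (0.67 ± 0.19, adjusted p = 0.0325). Their sum was 12.4 to 18.6 CPM over the 6 TAC hearts, against 7.53 to 11.5 CPM over the 6 sham hearts, while the T cell gene Cd3d and the B cell gene Ms4a1 were at 0 in all 6 sham hearts and at most at 0.715 and 0.376 CPM in TAC hearts. No endothelial marker of 10 passed, with sums of 1092 to 1367 CPM in TAC hearts, against 1025 to 1149 CPM in sham hearts.

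Of 10 ventricular cardiomyocyte markers, Myh7 rose and Tnni3 fell after diesel exhaust, none passed after filtered air, and 1 rose and 4 fell on average. Their sum was 43613 to 49383 CPM in diesel TAC hearts, against 63473 to 75018 CPM in diesel sham hearts, and 40187 to 64736 CPM in filtered air TAC hearts, against 58536 to 78319 CPM in filtered air sham hearts. The sum, like Cenpf, was lower in TAC hearts, without overlap after diesel exhaust and with overlap after filtered air. Of 10 smooth muscle and pericyte markers, 0 rose and 1 fell after diesel exhaust, 0 passed after filtered air, and 2 rose and 2 fell on average, with sums of 684 to 814 CPM in TAC hearts, against 747 to 878 CPM in sham hearts. No erythroid marker of 7 tested passed, with sums of 599 to 940.1 CPM in TAC hearts, against 551 to 890.9 CPM in sham hearts. The part of these cell types in the results for the 40 genes was not tested.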

How the data were processed

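The deposited values are raw read counts per Entrez gene number for 12 mouse heart libraries, made by the authors from ribosomal RNA-depleted total RNA on an Ion semiconductor instrument, per the labels' protocols. Per the submitters' processing notes, reads were trimmed with cutadapt 1.6, aligned with Subread 1.4.2 to mm10 and counted with featureCounts. Strand setting, treatment of reads with several matches and annotation version: not given in the sources used here, so genes with overlapping exons (12 of the 40 members, by GENCODE M21) may share reads. The longest overlaps were 1271 bases of Kif20a with Cdc23, 1100 of Ccnd1 with LTO1 and 911 of Prc1 with Rccd1, all on the other strand. Symbols came from a RefSeq table of GRCm38.p6 for 25275 genes and GENCODE M21 for 18 more.

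From the counts, TMM factors and CPM were computed with edgeR 4.0.16 in R 4.3.3. Genes were kept by filterByExpr (count minimum 10). All 12 libraries entered a robust quasi-likelihood fit with 1 coefficient for each of the 4 groups, which left 8 residual degrees of freedom. The 6 contrasts were TAC over sham within each exposure and averaged, diesel exhaust over filtered air within TAC and within sham hearts, and the interaction. Benjamini-Hochberg adjustment ran over all genes tested in a contrast, with a threshold of 0.05. SE are derived from the fold change and its F statistic; CPM errors are SD. The fit was checked on simulated data. Alternatives used DESeq2 1.42.0, limma 3.58.1 (voom), other scalings, no filter, the compared groups alone and each library left out.

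Replicate numbers follow accession order and only name a heart. The members, their roles and the further lists were chosen with earlier results of these data known. Every library's value is given for members past the threshold in any contrast, for Cenpf, and in each role for the 2 members of highest mean CPM and the one of largest averaged fold change; other members are given by range, change or raw counts, and genes of further lists where they passed.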

Additional observations from a re-analysis of the deposited data

Results flagged for a closer look

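Among the 17 members described heart by heart, the 6 TAC and the 6 sham hearts of each were checked for a single heart far from the others, which made 34 groups, and chance flags about 1 group in 20. Anln in filtered air TAC heart 1 was at 1.43 CPM, far below the next lowest TAC heart at 5.38 CPM. Cdk1 in diesel sham heart 1 was at 2.68 CPM, far above the next highest sham heart at 0.734 CPM. No cause was tested for either.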

How the results depend on the processing

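The 17 members described heart by heart gave 1057 results under up to 18 alternatives, each result being 1 member in 1 contrast under 1 alternative. Of these, 987 kept direction and side of the threshold, 42 lost the call, 5 gained one and 23 turned direction. Many that kept their side had no call to lose, and results of the same fit are not independent. For exposure and interaction only Top2a, Mki67 and Cenpf were followed. After diesel exhaust, 3 members passed in every alternative except without TAC heart 1, where 4 did. After filtered air 1 passed, and with 1 heart left out the count ran from 0 to 1. The averaged contrast gave 9, with DESeq2 10, with voom 7, and 4 to 9 with 1 heart left out. No member passed for exposure or interaction in any alternative. Outside those 17, Kif23 gained the averaged call in 4 alternatives. Among the 17, directions turned only for changes that missed the threshold. With 1 heart left out the log2 change of Ccnd1 after filtered air ran from -0.033 to 0.36, of E2f1 after diesel exhaust from -0.14 to 0.96, of Pcna from -0.022 to 0.23 after diesel exhaust and from -0.058 to 0.18 after filtered air, and of Rrm1 from -0.26 to 0.26, from -0.15 to 0.20 and, on average, from -0.11 to 0.17. Averaged Rrm1 was also 0.0030 without mitochondrially encoded genes and 0.0019 without a filter. Cenpf, diesel exhaust against filtered air, ran from -0.59 to 0.046 in TAC hearts and from -0.055 to 0.21 in sham hearts. Over all genes 442 passed after diesel exhaust (668 by DESeq2, 188 to 530 with 1 heart left out), 113 after filtered air (250 by DESeq2, 247 without a filter, 74 by voom, 39 to 143) and 1091 on average (631 to 1213). The causes were not tested. No paired analysis was possible because the labels give the hearts no replicate numbers shared between groups. Precision was limited for many members: 9 had fewer than 100 counts in all, and the median SE of a tested member was 0.71 log2 units after diesel exhaust and 0.67 after filtered air.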
